A study of Mus musculus with 6 samples.

Results

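Expression of the TGF-beta ligand Tgfb1, its receptors Tgfbr1 and Tgfbr2, the signal-carrying Smads (Smad2, Smad3 and Smad4), the inhibitory Smad7 and the corepressors Ski and Skil was compared between BALB/c and SKG mice in their earliest thymic iNKT cells. These 9 genes were chosen by name, and all 9 were found among the 48397 genes of the deposited count table and among the 12312 genes that passed the filter on low counts. RNA-Seq had been carried out on 6 libraries, 3 from wild-type BALB/c mice and 3 from SKG mice, which have the BALB/c strain background and a Zap70 mutation that weakens TCR signaling, all aged 8 to 10 weeks. Stage 0 cells, the progenitors found just after positive selection, had been sorted as PBS57–CD1d tetramer+, CD24+ and CD69+ cells lacking CD44 and CD8, with low or no CD4. Each library stands for about 1000 cells from the pooled thymi of 3 mice, so the spread given here is between pools and not between mice.

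In this pathway TGF-beta is released from a latent complex and binds the type II receptor Tgfbr2, which activates the type I receptor Tgfbr1. Tgfbr1 phosphorylates Smad2 and Smad3, which join Smad4 and enter the nucleus to regulate transcription. Smad7 blocks Smad phosphorylation and directs ubiquitin ligases to the receptor, while Ski and Skil repress Smad-bound genes. Smad7 and Skil are themselves induced by TGF-beta and close a feedback loop. In the thymus, TGF-beta signaling is known to support the survival and maturation of agonist-selected cells, iNKT cells among them.

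The libraries held between 37176544 and 43115544 reads counted on genes, but between 10835 and 14791 genes with at least 10 reads, and 27.5% of the genes tested had 10 or fewer reads in at least 1 library. The markers of the sorted cells, Cd3e, Cd3d, Cd2, Egr2, Zbtb16, Cd69 and Cd24a, were all detected. Their summed level was 3960 to 4950 CPM in BALB/c and 3300 to 3640 CPM in SKG, where CPM stands for counts scaled to library size with TMM factors. Of these 7 markers, Cd69, Egr2 and Cd2 did not overlap between genotypes and were higher in BALB/c, as were 7.12% of all genes tested, and Cd24a averaged 25.1 CPM in BALB/c and 70.4 CPM in SKG, with overlapping libraries. Of the mature iNKT markers, Tbx21 had 0 reads in all 6 libraries. All 8 markers of double-positive thymocytes had reads, with summed levels of 71.3 to 467 CPM in BALB/c and 88.6 to 242 in SKG. The 467 CPM belonged to BALB/c replicate 1, which also held 69.7 CPM of erythroid markers, against at most 1.57 CPM in any other library. Myeloid markers summed to 3.70 to 64.8 CPM in BALB/c and 5.83 to 135 in SKG, and B-cell markers to 1.73 to 6.84 and 3.11 to 8.38. Thymic epithelial and stromal markers summed to 28.2 to 41.3 CPM in BALB/c and 17.4 to 95.1 in SKG. Cd14 and Krt5 were at 0 reads throughout. The stromal sum was mostly Epcam, at 28.2 to 39.2 CPM in BALB/c and 10.0 to 86.9 in SKG. The highest myeloid sums, in BALB/c replicate 1 and SKG replicate 3, were mostly Lyz2, at 53.7 and 107 CPM. Platelet markers, of interest because platelets carry much Tgfb1, had at most 0.376 CPM, and Ppbp, Gp9 and Gp1bb were at 0 reads in every library.

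Promoter windows from RefSeq (GRCm38.p6), reaching from 250 bases before to 50 bases after an annotated start, were examined for 5 of the 9 genes. A pair of the windows is shown because each holds a motif bound by Egr factors, the zinc finger proteins that TCR signaling induces. The Tgfb1 window (chr7:25686752-25687051, plus strand) holds GCGTGGGCG on its reverse strand, at positions 129 to 137 of the window, a motif found in 0.612% of 32851 windows. The first Tgfbr1 window (chr4:47352972-47353271, plus strand) holds the related GCGGGGGCG at positions 59 to 67, found in 2.91% of windows. G and C make up 77.0% of the Tgfb1 window and 74.7% of this Tgfbr1 window. Motif shares among windows of like composition were not computed. The other windows examined, a downstream window of Tgfbr1 and those of Ski, Smad3 and Tgfbr2, held neither Egr motif. Capitals mark the motif.
Tgfb1: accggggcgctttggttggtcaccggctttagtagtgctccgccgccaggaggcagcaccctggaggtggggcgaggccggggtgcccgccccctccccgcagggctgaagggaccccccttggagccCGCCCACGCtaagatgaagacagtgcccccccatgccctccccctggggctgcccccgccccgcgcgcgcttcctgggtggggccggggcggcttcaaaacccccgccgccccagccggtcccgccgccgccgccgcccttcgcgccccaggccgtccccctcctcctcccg
Tgfbr1: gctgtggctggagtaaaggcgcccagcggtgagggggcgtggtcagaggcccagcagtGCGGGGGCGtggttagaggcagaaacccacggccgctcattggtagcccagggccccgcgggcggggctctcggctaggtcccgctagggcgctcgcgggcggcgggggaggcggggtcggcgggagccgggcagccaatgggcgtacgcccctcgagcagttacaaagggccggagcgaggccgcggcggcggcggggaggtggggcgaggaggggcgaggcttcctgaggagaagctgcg

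The other motifs were searched on both strands of the windows of the same 5 genes. Windows of Smad2, Smad4, Smad7 and Skil were not examined for any motif. The Smad palindrome GTCTAGAC (0.213% of all windows), the AP-1 motif TGAGTCA (5.20%) and the NFAT motif GGAAAATT (1.04%) were absent from these windows. The CAGA box of Smad3 and Smad4, CAGACA, lay in 21.0% of all windows. Of the members' windows it lay in 1, a downstream Tgfbr1 window that is not shown (chr4:47385966-47386265), and not in the Tgfbr1 window printed here. The shorter Smad motif GTCTG lay in 49.6% of windows, among them that same downstream Tgfbr1 window and the window of Tgfbr2. The GC box, read as GGGCGG or as the overlapping form GGCGGG, lay in 35.7% and 35.3% of windows. The NFAT core TTTCC lay in 61.3% of windows and the CACCC box in 57.5%, shares at which a match says little about a gene. A match in letters does not show binding, and factor binding was not measured in these libraries.

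For none of the 9 genes did the test across all genes detect a difference between SKG and BALB/c stage 0 cells beyond the spread between libraries, and the intervals given with each gene show how large a difference the libraries leave possible. With calls set at an adjusted p below 0.1 and a minimum 1.5-fold change, the quasi-likelihood test of edgeR gave 0 calls among the 9, and 0% of the 12312 genes tested. At an unadjusted p under 0.05 there were 0 of the 9, against 5.45% of all genes. SKG and BALB/c libraries stood apart for 1 gene, Tgfbr1, which was higher in SKG, as were 6.77% of all genes, and for 0 genes in the other direction, against 7.12%. Fitted log2 fold changes (SKG over BALB/c) were above 0 for 8 of the 9 genes, among them Skil at only 0.01, and below 0 for Ski. Of the 12312 genes tested, 6030 were above 0. The median was 0.39 over the 9 genes and -0.02 over all genes tested. DESeq2 also called 0 of the 9, where it called 2.58% of 14342 genes without shrinkage of fold changes and 1.67% of 13862 with it.

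**Figure D1:**
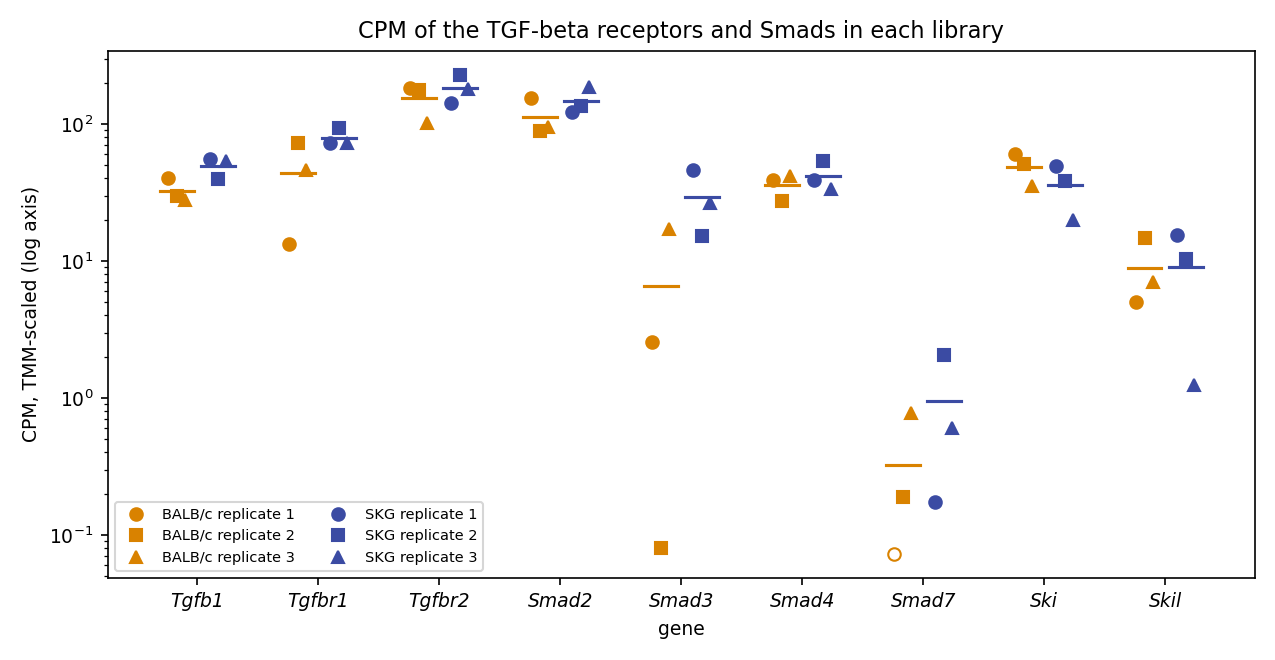
CPM of the 9 genes (log axis) in each library, with BALB/c in orange, SKG in blue, a symbol per replicate and a line at the mean of 3 libraries; the open circle marks 0 reads and is drawn at the level of 3 reads. Tgfbr1 in BALB/c replicate 1 and Smad3 in BALB/c replicates 1 and 2 lie far below the other libraries, whereas Tgfbr2, Smad2, Smad4 and Tgfb1 keep within a narrow band.

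Tgfb1, the ligand, lies on chromosome 7 of GRCm38 from 25687002 to 25705077 on the plus strand. It was at 40.0, 29.7 and 28.1 CPM in BALB/c replicates 1 to 3 and at 55.3, 39.9 and 54.1 CPM in SKG replicates 1 to 3. The genotypes met at their edges, since the lowest SKG library and the highest BALB/c library differed by less than 1 CPM. BALB/c averaged 32.6 ± 6.47 CPM (SD, n = 3), SKG 49.8 ± 8.57 CPM (SD, n = 3), and the fitted log2 fold change was 0.61 (standard error 0.34, 95% interval -0.21 to 1.43, edgeR adjusted p = 0.971). DESeq2 without shrinkage gave an unadjusted p of 0.0300 for this gene, and an adjusted p of 0.388. In bulk RNA a change in the share of cells that express a gene and a change in its RNA per cell cannot be told apart.

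Tgfbr1, the type I receptor kinase, lies on chromosome 4 from 47353222 to 47414931 on the plus strand. It was at 13.3, 72.4 and 46.0 CPM in the BALB/c libraries and at 72.9, 93.4 and 72.6 CPM in the SKG libraries. The SKG libraries were alike, with a CV of 15.0%, whereas BALB/c replicate 1 was far below replicates 2 and 3, and BALB/c replicate 2 came within 1 CPM of the lowest SKG library. The log2 fold change was 0.86 (standard error 0.58, 95% interval -0.53 to 2.25, edgeR adjusted p = 0.988). The two-sided exact permutation test gave p = 0.1, the smallest that 3 libraries against 3 allow. Without BALB/c replicate 1, the library with the most double-positive and erythroid marker reads, the log2 fold change was 0.43, and without BALB/c replicate 2 it was 1.41. The part of those other cells in the low Tgfbr1 value was not tested.

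Tgfbr2, the ligand-binding type II receptor, had the highest level per kilobase of exon of the 9 genes in all 6 libraries. The gene spans 116084293 to 116175360 of chromosome 9, on the minus strand, and was at 184, 177 and 102 CPM in BALB/c and at 143, 229 and 180 CPM in SKG. The libraries of the genotypes were interleaved, and the log2 fold change was 0.25 (standard error 0.29, 95% interval -0.44 to 0.95, edgeR adjusted p = 0.991). Per kilobase of exon, Tgfbr2 exceeded Tgfbr1 by 1.95 and 1.77 times in BALB/c replicates 2 and 3, and by 1.56, 1.96 and 1.98 times in the SKG libraries. In BALB/c replicate 1 the ratio was 11.0, so the receptors stood in a similar proportion in 5 of the 6 libraries.

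Smad2, which with Smad3 is the direct substrate of Tgfbr1, lies on chromosome 18 from 76241580 to 76310963. It was at 156, 88.2 and 94.96 CPM in BALB/c and at 121, 136 and 186 CPM in SKG, with overlapping libraries. The log2 fold change was 0.39 (standard error 0.295, 95% interval -0.32 to 1.09, edgeR adjusted p = 0.991). Smad4, the common partner of the phosphorylated Smads, lies on chromosome 18 from 73639009 to 73703780. It varied little, at 39.1, 27.2 and 41.8 CPM in BALB/c and 39.3, 53.3 and 33.5 CPM in SKG (log2 fold change 0.22, standard error 0.37, 95% interval -0.67 to 1.12, edgeR adjusted p = 0.991).

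Smad3 behaved differently from Smad2. The gene lies on chromosome 9 from 63646767 to 63757994 and was counted 105, 3 and 775 times in BALB/c replicates 1 to 3, and 1866, 588 and 957 times in the SKG replicates. Expressed as CPM these were 2.55, 0.0809 and 17.2 in BALB/c and 46.3, 15.1 and 26.5 in SKG. The lowest SKG library was below the highest BALB/c library, and the BALB/c libraries ranged from almost no reads to a moderate number. BALB/c averaged 6.60 ± 9.23 CPM (SD, n = 3) and SKG 29.3 ± 15.8 CPM (SD, n = 3). The fitted fold change was 4.44 (log2 2.15, standard error 1.54, 95% interval -1.53 to 5.83, edgeR adjusted p = 0.988), so neither a large difference nor none could be told from these libraries. Without BALB/c replicate 3, the log2 fold change was 4.48 (edgeR unadjusted p = 0.0407, adjusted p = 0.653), and without BALB/c replicate 2 it was 1.56. In each genotype Smad3 was highest in the library with the most genes detected, BALB/c replicate 3 with 14339 and SKG replicate 1 with 14791. The remaining libraries did not follow this order. Smad3 was higher in BALB/c replicate 1, with 11415 genes, than in replicate 2, with 11830. It was also higher in SKG replicate 3, with 10835 genes, than in replicate 2, with 12287. The part of detection in this result was not tested beyond a fit with detected genes as a covariate, which gave a log2 fold change of 2.89 (edgeR adjusted p = 0.888). Over all alternatives that kept the 6 libraries, the value lay between 1.12 (DESeq2 with shrinkage) and 5.29 (library numbers as a replicate block). Per kilobase of exon, Smad2 exceeded Smad3 by 38.6, 688 and 3.49 times in BALB/c and by 1.66, 5.66 and 4.44 times in SKG.

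Smad7, the inhibitory Smad, was barely detected. The gene spans 75367529 to 75395935 of chromosome 18 and was counted 0, 7 and 35 times in BALB/c and 7, 80 and 22 times in SKG. For the library with 0 reads, counting error alone allows a level of up to 0.0727 CPM (3 reads). The highest level of any library was 2.06 CPM, in SKG replicate 2, and the libraries overlapped. Its log2 fold change was 1.55 with a standard error of 1.70 (95% interval -2.53 to 5.63, edgeR adjusted p = 0.991), and it was 0.29 without SKG replicate 2 and 3.30 without BALB/c replicate 3. With few reads and a wide spread between libraries, no difference in Smad7 was detectable, and the parts of depth and of spread in this were not tested.

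Ski was the only gene of the 9 with a fitted fold change below 0. The gene spans 155154075 to 155222592 of chromosome 4 and was at 60.0, 51.4 and 35.2 CPM in BALB/c and at 49.4, 38.2 and 20.0 CPM in SKG. The genotypes overlapped over much of their range, with the highest value in a BALB/c library and the lowest in an SKG library (log2 fold change -0.45, standard error 0.45, 95% interval -1.52 to 0.62, edgeR adjusted p = 0.991). Its relative Skil, which encodes the related corepressor SnoN, lies on chromosome 3 from 31095058 to 31122577. It was at 4.995, 14.8 and 6.996 CPM in BALB/c and at 15.4, 10.3 and 1.24 CPM in SKG. The means were nearly equal, 8.92 ± 5.17 CPM (SD, n = 3) against 8.97 ± 7.17 (SD, n = 3), but the libraries of 1 genotype differed by up to an order of magnitude, and the log2 fold change of 0.01 carried a standard error of 1.07 (95% interval -2.56 to 2.58, edgeR adjusted p = 1.000). Its direction changed with the library left out, from -0.62 without SKG replicate 1 to 0.58 without BALB/c replicate 2.

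**Figure D2:**
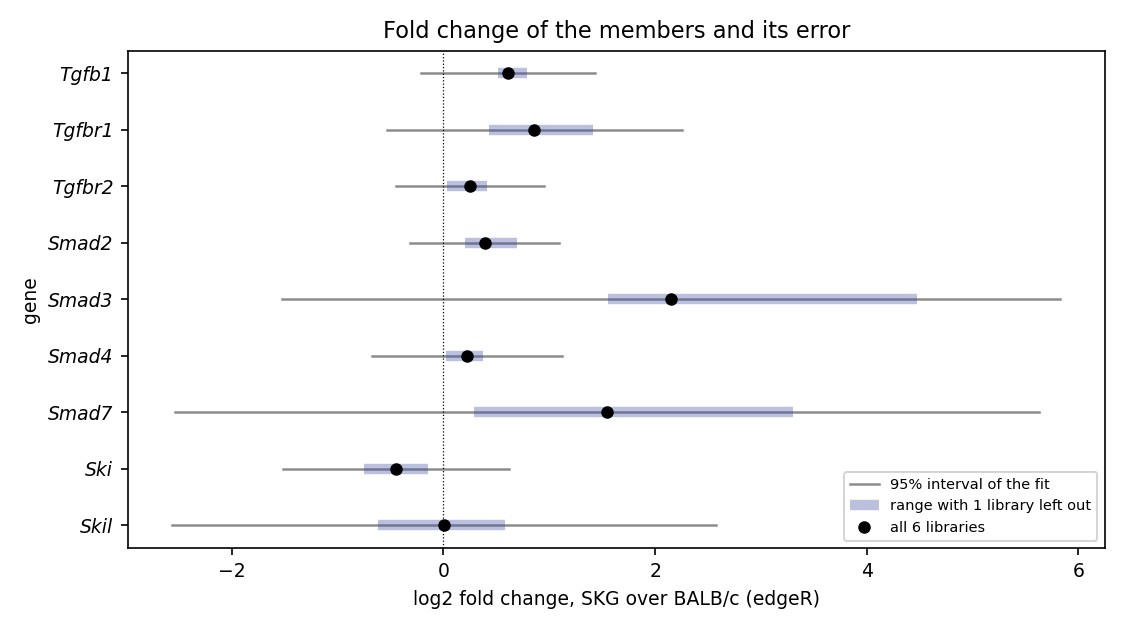
Log2 fold change, SKG over BALB/c, of each gene (dot) with its 95% interval from the edgeR fit (grey line) and the range obtained when each of the 6 libraries was left out in turn (blue band). All 9 intervals include 0; those of Smad3, Smad7 and Skil are the widest, and the band of Skil crosses 0.

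The 9 genes thus fell into a group with small and a group with large spread between libraries. For Tgfb1, Tgfbr2, Smad2 and Smad4 the CV of CPM was between 17.2% and 32.99% in either genotype, below the medians over all genes tested of 37.5% in BALB/c and 38.4% in SKG. For Smad3 the CV was 140% in BALB/c and 53.9% in SKG, for Smad7 it was 126% and 104%, and for Skil 57.9% and 79.9%. Tgfbr1 (67.4% and 15.0%) and Ski (25.7% and 41.4%) were above the median in 1 genotype each. In each genotype 5 of the 9 genes had a CV below the median and 4 above it.

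Levels of different genes were compared as CPM per kilobase of merged exons, with exons of all annotated transcripts counted in the length. In BALB/c, Tgfbr2 came first at 18.8 ± 5.53 CPM per kilobase (SD, n = 3), followed by Smad2 at 12.9 ± 4.25, Smad4 at 9.71 ± 2.09, Ski at 8.79 ± 2.26, Tgfbr1 at 6.72 ± 4.53 and Tgfb1 at 6.47 ± 1.28. Smad3 at 1.19 ± 1.67, Skil at 0.920 ± 0.533 and Smad7 at 0.0711 ± 0.0894 came last. The ranges of neighbours in this order overlapped except between Tgfb1 and Smad3 and between Skil and Smad7. In SKG, Tgfbr2 was again first at 22.5 ± 5.28 and Smad2 second at 16.8 ± 3.88, ahead of Tgfbr1 at 12.2 ± 1.82, Smad4 at 11.3 ± 2.73, Tgfb1 at 9.87 ± 1.70, Ski at 6.44 ± 2.67, Smad3 at 5.29 ± 2.85, Skil at 0.926 ± 0.740 and Smad7 at 0.209 ± 0.218. There the ranges of neighbours stood apart only between Smad3 and Skil. Among the inhibitors, Ski exceeded Skil in all 6 libraries, by 6.07 to 20.9 times in BALB/c and by 5.59 to 28.0 times in SKG.

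**Figure D3:**
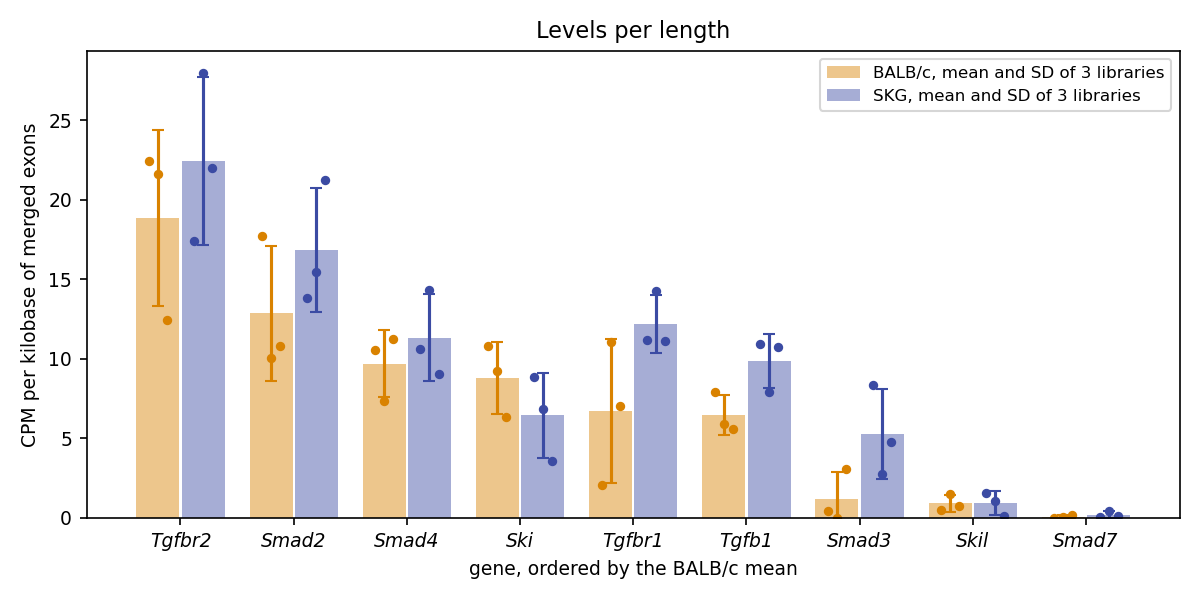
Level per length of the 9 genes, as CPM per kilobase of merged exons, with bars for the mean of 3 libraries, error bars for the SD and dots for single libraries (BALB/c orange, SKG blue). Tgfbr2 and Smad2 lead in both genotypes, and Skil and Smad7 come last.

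The pattern over the 6 libraries was also compared between genes, as the root mean square difference of log2 CPM after centring each gene. The nearest of all genes tested was 2310022A10Rik for Tgfb1 (difference 0.06 on the log2 scale), Zfp263 for Smad4 (0.06), Atp2b1 for Ski (0.10), Exoc8 for Smad2 (0.11), Ikzf2 for Tgfbr2 (0.12) and Pex5 for Tgfbr1 (0.13). For the members with a large spread the nearest gene was farther off, namely Npat for Skil (0.21), Rps6kc1 for Smad3 (0.41) and Fam117b for Smad7 (0.65). Within the 9 genes, Tgfb1 and Smad2 were nearest to each other, at 0.26. With 6 libraries and 12312 genes, a close pattern can arise between genes that have no link. How near the nearest gene lies for genes outside the 9 was not computed, so these are descriptions only.

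Of 73 other genes of the pathway, 51 passed the filter on low counts, and 0 of them were called by edgeR. At an unadjusted p under 0.05 there was 1 of the 51, against 5.45% of all genes tested, the activin type II receptor gene Acvr2a, with 861, 725 and 212 reads in BALB/c and 61, 112 and 4 reads in SKG. Every BALB/c library lay above every SKG library, and the log2 fold change was -3.32 (standard error 1.35, edgeR unadjusted p = 0.0461, adjusted p = 0.906). Without overlap between genotypes were 3 genes higher in SKG (Ppm1a, Sp1 and Mapk14), against 6.77% of all genes, and 3 higher in BALB/c (Acvr2a, Crebbp and Ldlrad4), against 7.12%, so neither count stood above the background. The median log2 fold change of the 51 genes was 0.06, with 28 above 0 and 23 below.

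Among ligands and genes of latency, 5 of 17 were tested, and the other TGF-beta isoforms Tgfb2 and Tgfb3, the latency proteins Ltbp1, Ltbp3 and Ltbp4 and the docking receptor Lrrc32 were not among them. Tgfb2 had 211 reads in SKG replicate 2, 25 in SKG replicate 1 and at most 1 in the other libraries, and Tgfb3 had 27 reads in SKG replicate 1 and at most 1 elsewhere. Nrros, which encodes another docking protein for latent TGF-beta, was at 182 CPM on average in BALB/c and 179 CPM in SKG (log2 fold change -0.03, standard error 0.34). Of the other Smads, Smad1 and Smad5, which serve the BMP branch, were tested, with log2 fold changes of -0.32 and 0.00, whereas the inhibitory Smad6 and the BMP-branch Smad9 failed the filter. Among 20 tested regulators of receptors and Smads, the median log2 fold change was 0.06 and the range was -1.45 to 1.25. The 10 tested nuclear partners had a median of 0.14. The 8 genes of the Smad-independent branch, most of them of TAK1 and p38 signaling, had a median of 0.43. Of the genes in these lists, 0 had an unadjusted p under 0.05.

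Of 18 genes known to be induced or repressed by TGF-beta, 8 were tested. In the induced list, which includes Smad7 and Skil, 7 of 12 genes were tested and 0 had an unadjusted p under 0.05. Log2 fold changes were above 0 for 5 of the 7 and below 0 for 2. Libraries of the genotypes stood apart for 1 gene of this list, Ldlrad4, which was higher in BALB/c (log2 fold change -0.51), as were 7.12% of all genes. For 0 genes they stood apart in the other direction, against 6.77%. Tgif1, a Smad corepressor gene of this list, was counted 0, 1 and 304 times in BALB/c and 269, 435 and 425 times in SKG (log2 fold change 2.13, standard error 2.22, edgeR adjusted p = 0.991). Itgae, Foxp3, Cdkn1a and Cdkn2b were among the genes that failed the filter. In the repressed list Myc alone was tested, at 393 CPM in BALB/c and 146 CPM in SKG (log2 fold change -1.43, standard error 0.18, edgeR adjusted p = 0.328), and it was the only tested gene of the target lists with an unadjusted p under 0.05. Myc responds to many signals, the TCR among them.

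**Figure D4:**
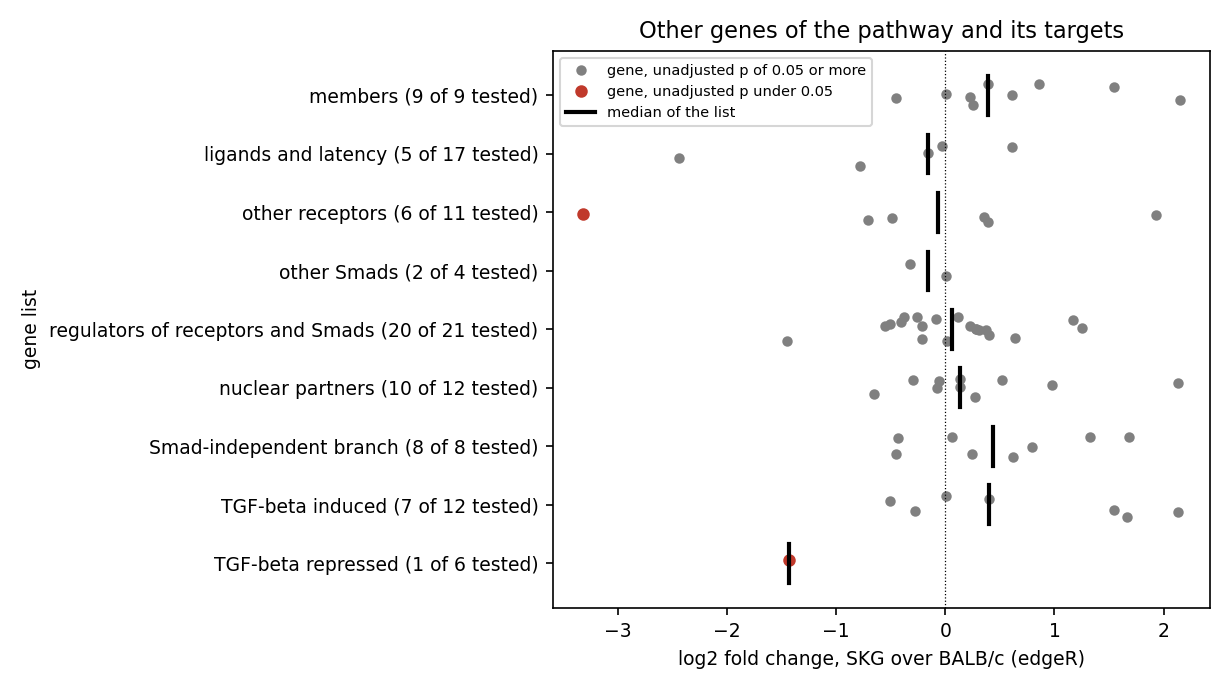
Log2 fold change, SKG over BALB/c, of each tested gene in the lists of pathway and target genes, 1 row per list, with the median as a black bar and genes at an unadjusted p under 0.05 in red. The red dots are Acvr2a and Myc; a gene in more than 1 list is drawn in each.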

How the data were processed

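RNA-Seq counts of 6 libraries of stage 0 iNKT cells were analysed. The authors aligned 50-nt single-end reads with HISAT2 2.1.0 to GRCm38 and deposited raw counts per gene, made with featureCounts (Subread 1.4.4) from unstranded reads over exons with mapping quality 10 or higher. The preamplification kit differs between the labels and the methods of the study. A deposited table of the authors' DESeq2 comparison (fold changes, p-values) was not used.

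All 6 libraries entered one fit without covariates in R 4.3.3. Genes were filtered with filterByExpr by genotype, scaled with TMM and tested with edgeR 4.0.16 (quasi-likelihood F test, Benjamini-Hochberg over 12312 genes, FDR under 0.1 and fold change of at least 1.5). Standard errors were derived from the F statistic and intervals from its degrees of freedom. For patterns and correlations, log2 CPM used a prior count of 2. The permutation test used log2 of the scaled CPM plus a small constant. Alternatives were DESeq2 1.42.0, limma 3.58.1 (voom), other scalings and filters, replicate blocks, a covariate, other thresholds and each library left out. The fit was tested on simulated data.

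Positions and exon lengths came from a GENCODE annotation of GRCm38, where 0 counted genes have exons overlapping those of the 9 genes. Floors and p-values cover counting error and the spread between pools, respectively. PCR copies cannot be told from separate molecules.

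The 9 genes and the gene lists were chosen with earlier results of these data known. Named beside the 9 genes are pathway and target genes at an unadjusted p under 0.05, the gene nearest in pattern to each, and genes that failed the filter. Nrros, Smad1, Smad5, Tgif1, Ppm1a, Sp1, Mapk14, Crebbp and Ldlrad4 were named after their values were seen.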

Additional observations from a re-analysis of the deposited data

How the results depend on the processing

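For the 9 genes, 0 were called under any of the alternatives run. Over all genes, edgeR called 0, DESeq2 called 370 without shrinkage and 231 with shrunken fold changes, and edgeR called 2 without a filter and 1 with the stricter filter of 5 CPM in 3 libraries, which left out Smad7. DESeq2 without shrinkage called 1 pathway gene, Bmp7 (471, 0 and 48 reads in BALB/c against 0, 0 and 1 in SKG), which failed the edgeR filter and was tested but not called by edgeR without it, and either DESeq2 fit called 1 target gene, Myc. The cause was not tested.

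Of 143 fits of a single gene under an alternative, 134 kept the direction and the side of the threshold and 9 reversed, all for Skil. Its log2 fold change of 0.01 became -0.36 with limma-voom, -0.008 with library size alone, -0.47 and -1.26 with the title number and the library number as a replicate block, and -0.48 when detected genes entered as a covariate. With 1 library left out it lay between -0.62 and 0.58. What the shared numbers stand for is not given in the labels. Deviations of same-numbered libraries correlated at -0.145 to 0.00289, and 0 of 3 BALB/c libraries correlated best with the SKG library of the same title number. With 3 libraries per genotype, these correlations cannot show whether same-numbered libraries were processed together. Either block called 0 genes. The library-number block compares only libraries that share a number. Smad7 had at most 80 reads in a library. The thresholds changed alone (FDR under 0.05, or no fold-change threshold) could not have added a call.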
